A study of Mus musculus with 34 samples.

Results

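Zmynd8, Kdm1a and Phf21a encode chromatin regulators, and each gene carries a very short alternative exon of the kind that neurons preferentially include. These exons were followed across 27 small molecules in mouse N2A cells, an established neuroblastoma line. The set consists of every exon of up to 50 nt that the deposited event table lists for the 3 genes. It holds 4 exons of 8785 exons of that length and of 160750 exons in all, together with the expression of the 3 genes. Of the 4, the longest is 27 nt, and the shortest exon of these genes left out by the length limit is 52 nt. The genes were chosen with their splicing values in these libraries known, so the PSI values of their short exons are given as descriptions and carry no test.

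All cells received 0.4% DMSO for 24 h, either alone (3 libraries, labelled A, B and C) or with 1 of the compounds. The HDAC inhibitors Vorinostat (SAHA, 2.5 µM), CI-994 (5 µM), BRD4884 (10 µM) and BRD6688 (10 µM) had 2 libraries each, A and B, and each of the other 23 compounds had 1. The study classes 17 compounds as activators of microexon splicing and 10 as inhibitors. It found hits with a splicing reporter and tested them by RT-PCR on the reporter exon and several endogenous exons. Compounds for sequencing were then chosen by their effect on endogenous microexons and by structural diversity. Besides the HDAC inhibitors, the activators are 6 protein kinase inhibitors (A-443654 at 0.25 µM, NVP-AEW-541 and Trametinib at 1 µM, Crenolanib and SCH-772984 at 2 µM, and GNF-5837 at 0.5 µM), 4 drug-like screening molecules that the study places in 1 group (BTB12021 at 20 µM, RDR00572 and RH01954 at 2.5 µM, and S02045 at 5 µM) and 3 other screening molecules (BTB13120 at 0.625 µM, and BTBS00065 and SEW06315 at 2.5 µM). The inhibitors are 5-azacytidine (5 µM), MK-1775 (2 µM) and 8 screening molecules: AW00693 and JFD00822 at 5 µM, SPB00858 at 20 µM, and T5635931, T5758020, T5963258, T5985871 and the ChemBridge compound 7678804 at 6.7 µM. Because doses differ, compounds are set side by side and not ranked by potency. N2A is 1 cell line. The study's methods call the libraries of a replicated condition biological replicates, naming 2 for DMSO where the labels give 3, and do not say how the cultures were kept apart.

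Microexons are included in mature neurons under the control of the splicing factors Srrm4 and Srrm3, and many of them change a few residues of a protein surface without disturbing the reading frame. Kdm1a (LSD1) removes methyl groups from histone H3 lysine 4 as part of the CoREST complex, in which Phf21a (BHC80) binds unmethylated lysine 4 of histone H3. The neuronal form of Kdm1a with its microexon is known to have altered activity in neurons. Zmynd8 reads acetylated and methylated histones through its PHD, bromo and PWWP domains and recruits other regulators such as the NuRD complex and Kdm5 demethylases.

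The microexons and their neighbouring exon sequence are shown first, since the length and position of each decide what its inclusion does to the transcript. The coordinates are those of the deposited table (mm9). The sequences were read from GENCODE vM21 transcripts (GRCm38) whose exon has the same strand, length and flanking intron lengths, 30 bases of the flanking exons are in lower case, and the microexon is in capitals.
Zmynd8, 12 nt, chr2:165678368-165678379, minus strand: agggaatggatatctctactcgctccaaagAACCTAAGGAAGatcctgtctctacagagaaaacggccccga
Kdm1a, 12 nt, chr4:136119353-136119364, minus strand: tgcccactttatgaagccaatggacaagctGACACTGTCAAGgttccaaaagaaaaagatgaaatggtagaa
Phf21a, 23 nt, chr2:92191766-92191788, plus strand: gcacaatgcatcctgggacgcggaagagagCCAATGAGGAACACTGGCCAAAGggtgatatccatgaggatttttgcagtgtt
Phf21b, 23 nt, chr15:84624326-84624348, minus strand, shown because Phf21b is the paralogue of Phf21a: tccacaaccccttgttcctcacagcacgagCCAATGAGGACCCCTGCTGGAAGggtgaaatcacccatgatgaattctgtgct

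Both 12-nt exons lie in coding sequence and are a multiple of 3 nt long, so each adds 4 codons and keeps the frame. The Kdm1a exon starts at a codon boundary, whereas the Zmynd8 exon starts after 1 base of a codon. It is present in 2 of 21 annotated Zmynd8 transcripts as coding sequence, and the Kdm1a exon in 1 of 9 Kdm1a transcripts. The Phf21a exon differs in kind. Its 23 nt are not a multiple of 3, and it sits 69 nt upstream of an alternative exon of 164 nt (chr2:92191858-92192021). Among 21 annotated Phf21a transcripts, 5 contain the 23-nt exon, 7 contain the 164-nt exon and 0 contain both. The 2 lengths differ by 141 nt, a multiple of 3, so that exchanging one exon for the other leaves the downstream frame as it was. The 23-nt exons of Phf21a and Phf21b were identical at 17 of 23 positions. The fourth short exon of the set is a 27-nt exon of Phf21a (chr2:92041669-92041695), annotated only in a transcript without a coding sequence.

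Percent spliced in (PSI) is the share of transcripts that include an exon, estimated by vast-tools from reads over exon junctions. Summed over all exon events, rounded and counting a read once for each event it informs, libraries held 33500000 to 76000000 corrected reads (median 49750000). Filters followed the study's limits on coverage and on balance between the 2 junctions, except that events without a balance score were kept. The Zmynd8 and Kdm1a exons passed in all 34 libraries, the 23-nt Phf21a exon in 32, and the 27-nt Phf21a exon in 0. The 27-nt exon had 14 to 51 reads per library and PSI values of 0 to 3.9, and it is not described further. The neural identity of the cells was checked on RPKM values: 10 of 10 neural marker genes were above 1 RPKM in DMSO, from 22.38 (Elavl3) to 395.99 (Tubb3), and 7 markers of other cell types were at 0 to 0.79. Of these, Col1a1 reached 11.67 RPKM at most and was past the 2-fold limit with Vorinostat and CI-994.

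The Zmynd8 microexon had the widest range of the set. Its PSI was 52.25, 53.41 and 49.17 in DMSO A, B and C (51.61 ± 2.19, SD, n = 3), so that inclusion and skipping were nearly balanced. It was highest in the 4 grouped drug-like activators, with 90.05 in BTB12021 (95% exact binomial interval 86.30 to 93.29), 89.46 in RDR00572 (86.44 to 92.01), 87.62 in S02045 (83.81 to 90.84) and 76.88 in RH01954 (72.41 to 81.09). All intervals here cover counting error only. The intervals of the first 3 overlapped one another, and that of RH01954 lay below them. RDR00572 and RH01954 were given at the same dose, and their difference was 12.6 PSI (Newcombe interval 7.6 to 17.6, 1 library each, no test).

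The other activators formed a second tier or stayed near DMSO. Crenolanib gave 67.68, SEW06315 65.32 and GNF-5837 62.01, all above the DMSO range, with overlapping intervals. The 2 Vorinostat libraries gave 67.80 and 60.01, and CI-994 gave 61.49 and 57.28, again above every DMSO library, although the first Vorinostat library rests on 66 reads. The 2 BRD4884 libraries (54.76 and 39.91) lay on either side of the DMSO range, and those of BRD6688 were at 50.60 and 47.59. The remaining activators lay between 46.83 (A-443654) and 55.95 (NVP-AEW-541), and Trametinib was at 48.48. By RT-PCR the study reported that Trametinib raised inclusion of the Zmynd8 microexon in N2A cells, less so after Srrm4 depletion. The Trametinib library here did not show such a rise. For RDR00572 the study reported increases with and without Srrm4 depletion. Compounds classed as activators by the study thus covered a span from below DMSO to nearly full inclusion of this exon.

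Among the inhibitors, T5758020 gave the lowest PSI, 34.71 (31.19 to 38.33), followed by 7678804 (35.10), AW00693 (36.82), T5963258 (38.16) and T5985871 (40.46), whose intervals overlapped. T5635931 (45.32), SPB00858 (45.41) and 5-azacytidine (47.65) were below the DMSO range but within 10 PSI of the DMSO mean. MK-1775 (51.74) was within the range and JFD00822 (56.04) above it. In 6 compound libraries the binomial interval lay wholly above those of the DMSO libraries, and in 4 wholly below.

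An exon was counted as higher or lower where its mean PSI differed from the DMSO mean by at least 10 and every library of the compound that passed lay outside the DMSO range. By this count the Zmynd8 exon was higher in 8 of 17 activators and 0 of 10 inhibitors, and lower in 0 activators and 5 inhibitors. Over all exons of up to 50 nt, 3.55% of exon-activator pairs were counted higher and 1.30% lower, and 0.732% of exon-inhibitor pairs were higher and 5.07% lower. Most short exons are near full inclusion. Among those with a DMSO PSI of 10 to 90, where both directions can be seen, the shares were 22% higher and 6.16% lower for activators, and 3.94% higher and 24.4% lower for inhibitors. These shares are the background for the counts, and since the exon was selected on these values nothing is read from the comparison.

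**Figure D1:**
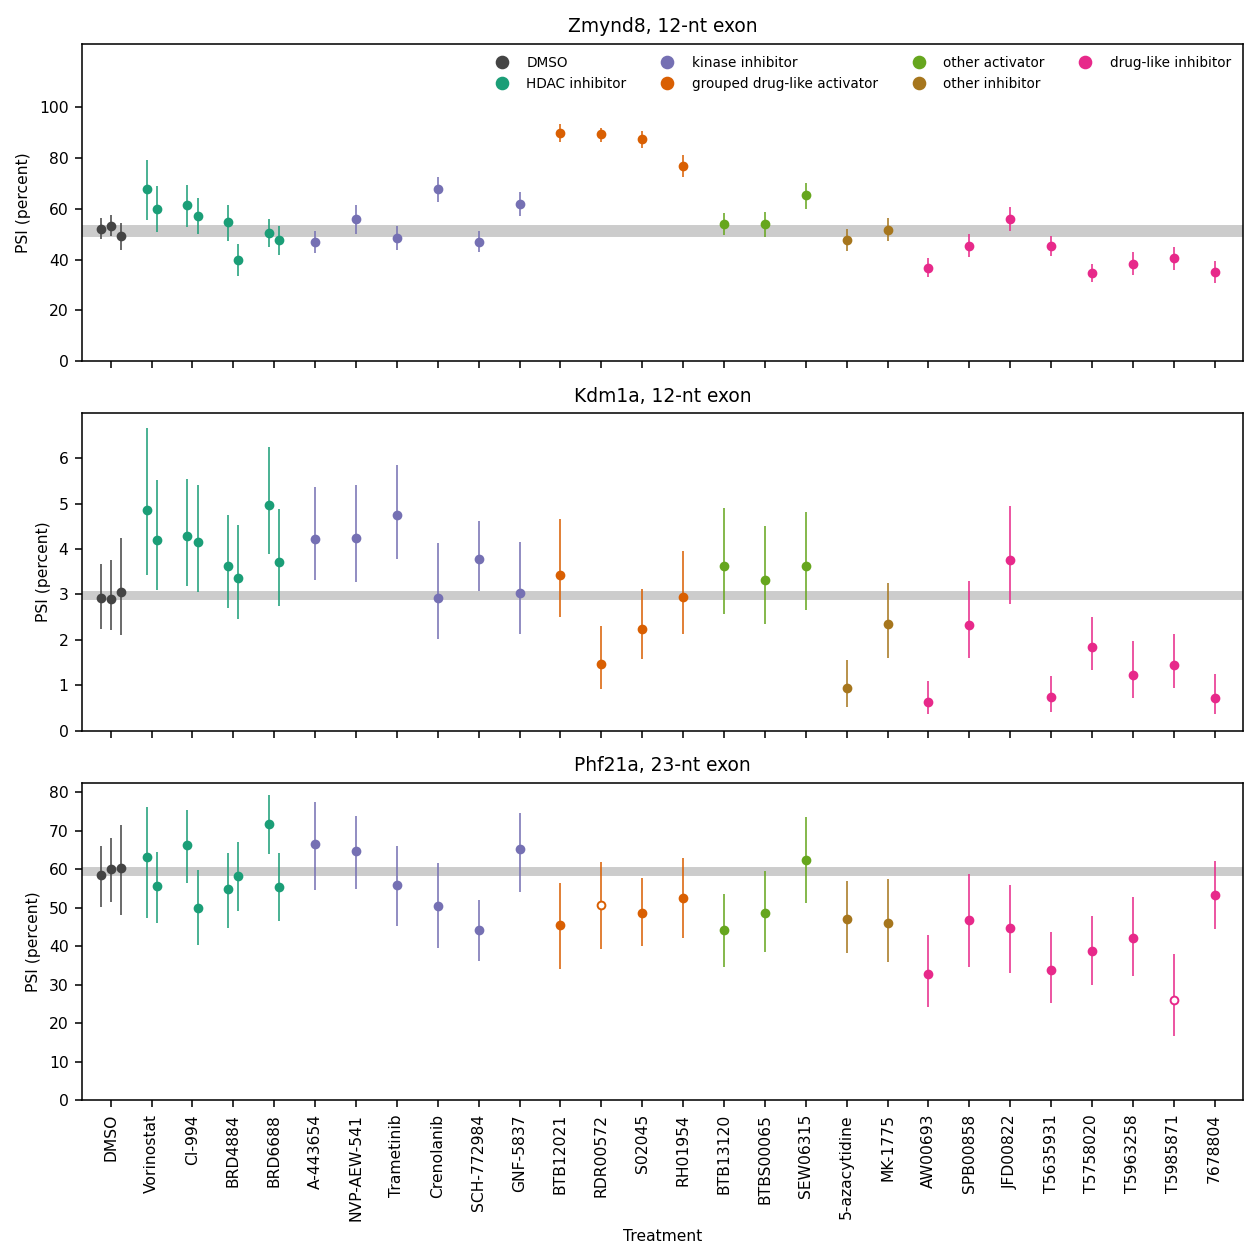
PSI (vertical axes, percent) of the Zmynd8, Kdm1a and 23-nt Phf21a exons in each of the 34 libraries by treatment, coloured by compound group; bars are 95% exact binomial intervals, the grey band is the range of the 3 DMSO libraries, and open symbols failed the filters. The vertical scales differ: Zmynd8 spans 34.71 to 90.05, Kdm1a 0.64 to 4.96 and Phf21a 25.93 to 71.82, and the 4 grouped drug-like activators stand above the rest for Zmynd8 only.

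The Kdm1a microexon was scarcely included in these cells. Its PSI was 2.92, 2.90 and 3.05 in the DMSO libraries (2.96 ± 0.08, SD, n = 3), yet the gene is well expressed, and each library had 740 to 2535 reads over these junctions. Of the 2271 reads in DMSO A, for example, about 66.31 corrected reads were from inclusion. Counting error was therefore small for this exon, although no difference reached 10 PSI. Over the exons compared, replicate libraries differed by more than counting error (mean chi-square per exon 3.15 to 5.07), a spread that the intervals leave out.

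All 8 HDAC inhibitor libraries were above the DMSO range for this exon, from 3.36 (BRD4884 B) to 4.96 (BRD6688 A), and in no case did the interval clear those of DMSO. That range, 2.90 to 3.05, is narrow, and values above it were not particular to these compounds. Of all 17 activators, 13 had a mean above that of DMSO and 4 below it. Vorinostat gave 4.85 and 4.19, CI-994 4.29 and 4.16, BRD4884 3.63 and 3.36, and BRD6688 4.96 and 3.71. The kinase inhibitors ranged from 2.92 (Crenolanib) to 4.74 (Trametinib). At the low end, 5 of the 10 inhibitors had an interval wholly below those of DMSO: AW00693 at 0.64 (0.36 to 1.09), 7678804 at 0.73 (0.37 to 1.25), T5635931 at 0.74 (0.41 to 1.21), 5-azacytidine at 0.95 (0.53 to 1.55) and T5963258 at 1.22 (0.72 to 1.98). T5985871 (1.44) and T5758020 (1.85) were also low, SPB00858 (2.32) and MK-1775 (2.35) were just under the DMSO range, and JFD00822 (3.76) was above it.

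On the odds of inclusion to skipping, with 1 added to both read numbers, AW00693 was 4.50-fold lower than DMSO, T5635931 3.91-fold, 7678804 3.91-fold, 5-azacytidine 3.04-fold, T5963258 2.38-fold and T5985871 2.05-fold. A count at 2-fold on this scale and outside the DMSO range, a rule added after the PSI values had been seen, gave 6 inhibitors lower and 0 activators in either direction. RDR00572 fell just short of it, 1.98-fold lower. Over all exons of up to 50 nt, the same rule counted 11.5% of exon-activator pairs as higher and 10.7% as lower, and 5.64% of exon-inhibitor pairs as higher and 21% as lower.

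The 2 exons of 12 nt differed in the grouped drug-like activators. Zmynd8 was higher in each, whereas Kdm1a was below the DMSO range with RDR00572 and S02045, within it with RH01954 and above it with BTB12021. None of these Kdm1a intervals cleared those of DMSO. RDR00572 had a Zmynd8 PSI of 89.46 and a Kdm1a PSI of 1.47 (0.91 to 2.30), the lowest Kdm1a value among the activators. S02045 combined 87.62 with 2.23, RH01954 76.88 with 2.95, and BTB12021 90.05 with 3.43. For Kdm1a the difference between RDR00572 and RH01954 at the same dose was -1.5 PSI (interval -2.6 to -0.3), opposite in sign to that for Zmynd8. On the log2 odds scale the 2 exons had a Pearson r of -0.74 across the 17 activators (Spearman rho -0.61) and 0.61 across the 10 inhibitors (rho 0.54). These describe compounds that share the DMSO controls and in most cases rest on 1 library each.

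**Figure D2:**
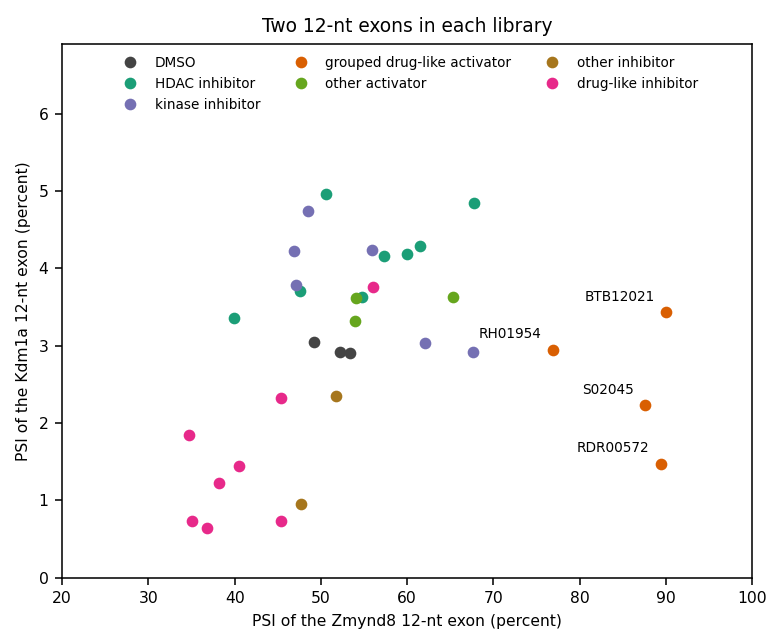
PSI of the Kdm1a 12-nt exon (vertical axis, percent) against PSI of the Zmynd8 12-nt exon (horizontal axis, percent), 1 point per library, coloured by compound group. The 4 named drug-like activators lie at the right, from 76.88 to 90.05 on the Zmynd8 axis, with Kdm1a values from 1.47 to 3.43, and most inhibitors lie at the lower left.

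The 23-nt exon of Phf21a went down more often than up. Its PSI was 58.41, 60.07 and 60.42 in DMSO (59.63 ± 1.07, SD, n = 3), on 73 to 158 reads, and 48 to 159 reads over all libraries, so its intervals are wide. The lowest values that passed the filters were those of AW00693 at 32.70 (24.19 to 42.82), T5635931 at 33.71 (25.15 to 43.64) and T5758020 at 38.76 (29.86 to 47.76), the 3 libraries with an interval wholly below those of DMSO. T5963258 was at 42.17, JFD00822 at 44.61, MK-1775 at 46.12, SPB00858 at 46.67, 5-azacytidine at 47.04 and 7678804 at 53.29. T5985871 was at 25.93 but failed the balance filter.

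All 9 inhibitors that passed were thus below every DMSO library. The activators were spread to both sides. BTB13120 (44.21), SCH-772984 (44.22), BTB12021 (45.45), S02045 (48.69) and BTBS00065 (48.74) were counted lower, as were 8 of the 9 inhibitors, and the exon was counted higher in 0 compounds. Among short exons with a DMSO PSI of 10 to 90, the shares were 6.16% lower and 22% higher for activators. For inhibitors they were 24.4% lower and 3.94% higher. The DMSO range, 58.41 to 60.42, is narrow for so few reads, and the exon was selected on these values, so nothing is read from the counts. A-443654 (66.41), GNF-5837 (65.31), NVP-AEW-541 (64.83) and SEW06315 (62.33) lay above DMSO by less than 10 PSI. Among the HDAC inhibitors, the 2 libraries were far apart for CI-994 (66.27 and 49.86) and BRD6688 (71.82 and 55.25). They were closer for Vorinostat (63.23 and 55.63, the first on 48 reads) and BRD4884 (54.88 and 58.15). The spread within CI-994 and BRD6688 was wider than the distance of either from DMSO. Without BRD6688 library B, that compound would be counted higher.

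The 164-nt exon next to it moved the other way. Its PSI was 42.43, 35.21 and 37.21 in DMSO (38.28 ± 3.73, SD, n = 3), and it reached 68.66 in T5635931, 64.41 in RDR00572, 63.32 in T5985871, 61.82 in AW00693 and 59.04 in T5758020. It was counted higher in 9 compounds, of which 6 were inhibitors, and lower in NVP-AEW-541 (25.94). In the 30 libraries where both exons passed, the 2 PSI values summed to 87.65 to 109.81 (median 95.42). The 23-nt exon was the more used of the 2 in all 3 DMSO libraries and in 15 of 19 activator libraries, and the 164-nt exon in 6 of 8 inhibitor libraries. The exons share their flanking exons and part of their reads, so their PSI values are not independent. Lower PSI of the microexon went with higher PSI of the longer exon in these libraries.

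**Figure D3:**
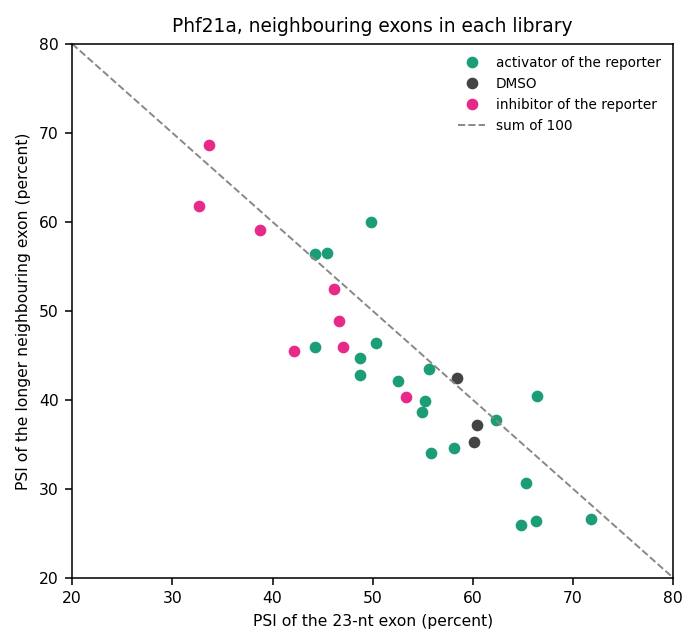
PSI of the 164-nt Phf21a exon (vertical axis, percent) against PSI of the 23-nt exon (horizontal axis, percent) in the 30 libraries where both passed the filters. Points (DMSO dark grey, activators green, inhibitors pink) lie along the dashed line on which the 2 values sum to 100, with DMSO at 58.41 to 60.42 on the horizontal axis and inhibitors mainly toward the upper left.

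The 3 genes also hold longer alternative exons, for which a test could be made where replicates exist. A limma fit to log2 odds of inclusion over the 3 DMSO and 8 HDAC inhibitor libraries took 3625 exons of any length with a mean PSI of 5 to 95. It called 229 exons higher (6.32%) and 59 lower (1.63%) at a Benjamini-Hochberg adjusted p under 0.05 and a difference of at least 10 PSI. Of the 3 exons over 50 nt of these genes that entered, 1 was called. This was the 249-nt Phf21a exon (chr2:92167073-92167321). Its PSI was 69.31, 72.38 and 61.94 in DMSO, 80.62 and 87.06 with Vorinostat, 84.02 and 82.35 with CI-994, 76.98 and 76.88 with BRD4884, and 69.71 and 70.97 with BRD6688. It was higher with the HDAC inhibitors by 0.83 ± 0.20 (SE) on the log2 odds scale, or 10.7 PSI, at an adjusted p of 0.0273 (limma). The BRD6688 libraries lay within the DMSO range and the other 6 above it. Values above that range were not particular to the HDAC inhibitors. The 6 kinase inhibitors gave 73.47 to 85.03, the 3 other activators 75.17 to 80.65 and the 4 grouped drug-like activators 59.6 to 73.82. The 10 inhibitors gave 64.22 to 81.97. By the count of at least 10 PSI, the exon was higher in 8 compounds, 7 of them activators, and lower in 0. The limma call was lost in 8 of 15 alternative fits, with differences of 7.73 to 12.95 PSI and adjusted p from 0.0159 to 0.137 (limma). With the replicate letter as a block, the number of exons called was 130 higher and 28 lower.

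The Kdm1a exon of 60 nt (chr4:136137955-136138014), named after its values were seen, was at 54.89, 55.61 and 55.16 in DMSO. It differed from DMSO by 3.9 PSI over the HDAC inhibitors (adjusted p 0.261, limma), with 65.37 and 63.46 for Vorinostat and 54.25 to 61.68 for the other 6 libraries. It was counted lower in 3 inhibitors, T5758020 (40.47), AW00693 (40.49) and T5985871 (41.86), and higher in 0 compounds. For this count and those of the next events, no share over all longer exons or introns was computed. The 112-nt Phf21a exon (chr2:92055621-92055732; DMSO 71.06 ± 5.49, SD, n = 3) differed by -2.58 PSI with the HDAC inhibitors (adjusted p 0.697, limma) and was counted lower in 5 compounds, among them BTB12021 (50.88), S02045 (55.45) and RDR00572 (55.49) but not RH01954 (68.20), and higher in 1, T5985871 (87.31). The Phf21a intron after the 164-nt exon was retained at 19.34 ± 3.27 (SD, n = 3) in DMSO and was counted higher with Vorinostat (46.43) and CI-994 (43.40, the 1 library that passed) and lower in 9 compounds, on 13 to 57 reads. An intron of 962 nt in Phf21a was counted higher in 3 compounds and lower in 2, but its 2 passing DMSO libraries were at 75.0 and 45.95, so it cannot be read.

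BRD4884 and BRD6688, given at the same dose in duplicate, could be compared without DMSO. The limma fit called 0 of 3625 exons higher (0%) and 0 lower (0%), and 270 had an unadjusted p under 0.05. For the 249-nt Phf21a exon the difference, BRD4884 minus BRD6688, was 0.49 on the log2 odds scale (95% interval -0.19 to 1.16, adjusted p 0.734, limma), for the 60-nt Kdm1a exon -0.11 (-0.54 to 0.31, adjusted p 0.936, limma), and for the 112-nt Phf21a exon -0.07 (-0.94 to 0.80, adjusted p 0.991, limma). These intervals are wide and do not show that the compounds act alike.

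Expression of Kdm1a and Phf21a stayed within 2-fold of DMSO with every compound, and that of Zmynd8 with all but Vorinostat and CI-994. RPKM is a read density scaled for transcript length and library depth, with replicates merged by the authors into 1 value per condition, and these merged values allow no test. Kdm1a was at 117.45 RPKM in DMSO and between 81.64 (Vorinostat) and 146.02 (AW00693) with the compounds. Phf21a was at 27.48 RPKM in DMSO and between 16.38 (T5985871) and 42.22 (GNF-5837). Zmynd8 was at 40.1 RPKM in DMSO, at 12.24 with Vorinostat, 19.67 with CI-994, 20.7 with BRD4884 and 27.45 with BRD6688, and highest with BTB13120 (61.51). These 4 HDAC inhibitors gave the lowest Zmynd8 values of all compounds.

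The log2 ratio to DMSO of Zmynd8, with 0.5 RPKM added, was -1.67 with Vorinostat and -1.01 with CI-994, and these were the only pairs of a member gene and a compound past 2-fold. Over all genes above 5 RPKM in either condition, 2.67% of gene-compound pairs were past 2-fold higher and 3.86% lower. With the same 2 compounds, however, 22.5% (Vorinostat) and 26.1% (CI-994) of these genes were past 2-fold lower, so that the Zmynd8 calls were not rare there. The median gene above 5 RPKM was itself lower, by -0.418 with Vorinostat and -0.508 with CI-994. Relative to that median the Zmynd8 ratios were -1.25 and -0.50, so only Vorinostat remained past 2-fold. The 4 grouped drug-like activators, in which the Zmynd8 exon was most included, had Zmynd8 levels of 37.91 to 44.54 RPKM, close to DMSO.

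**Figure D4:**
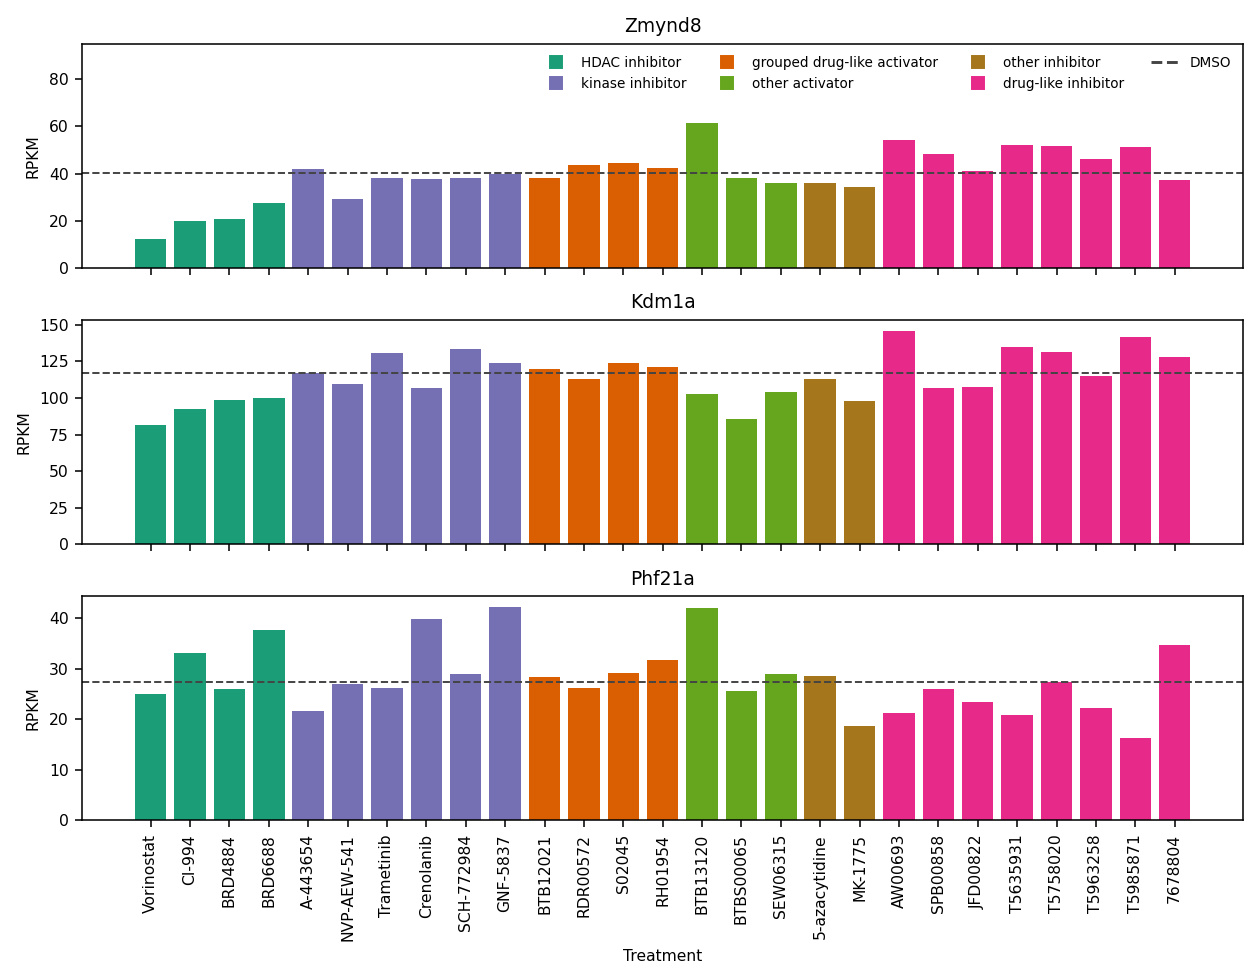
Expression (vertical axes, RPKM) of Zmynd8, Kdm1a and Phf21a with each of the 27 compounds, 1 merged value per condition, coloured by compound group; dashed lines mark DMSO at 40.1, 117.45 and 27.48 RPKM. The 4 HDAC inhibitors have the lowest Zmynd8 bars, 12.24 to 27.45 RPKM.

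The splicing factors that act on neural microexons were measured in the same way. Srrm4 was at 10.42 RPKM in DMSO and ranged from 3.34 (T5985871) to 19.63 (CI-994), and Srrm3 was at 18.49 and ranged from 6.56 (T5985871) to 32.08 (GNF-5837). Srrm4 was past 2-fold lower with T5985871, and Srrm3 with T5985871 and AW00693 (7.39). These are mRNA values. By western blot the study found SRRM4 protein lower with both AW00693 and T5985871, and higher with Trametinib. Rbm38, an RNA-binding regulator of splicing and mRNA stability, was at 40.62 RPKM in DMSO and past 2-fold higher with AW00693 (159.63), T5635931 (149.49) and T5985871 (271.03). In the study's western blots RBM38 protein was higher with AW00693 but not with T5985871. Ptbp1, which represses many neural exons, was at 476.41 RPKM in DMSO and between 240.76 (Vorinostat) and 656.85 (T5635931). Its neural paralogue Ptbp2 (88.96 in DMSO) was past 2-fold lower with Vorinostat (24.22) and CI-994 (29.71), the compounds with the 22.5% and 26.1% of genes lower given above. In the limma fit, 4 exons of these factors were tested and 1 was called, a 34-nt exon of Ptbp2 that fell by 13.06 PSI from 83.95 over the 4 HDAC inhibitors (adjusted p 0.0368, limma), a call lost in 11 of 15 alternative fits. Its mean PSI was 57.52 with Vorinostat, 64.73 with CI-994, 77.77 with BRD4884 and 83.52 with BRD6688, the last close to DMSO. Nova1 (21.24 in DMSO) was past 2-fold lower in 3 compounds and Nova2 (6.43 in DMSO) in 1. The part of these levels in the splicing values was not tested.

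A list of CoREST complex genes and related genes, Kdm1b and Rest among the latter, gave few short exons to compare. Of 13 genes listed, 5 had short exons measured in at least 14 compounds, 9 exons in all, and 8 of these had a DMSO PSI over 90. The exception was a 21-nt exon of Kdm1b, the paralogue of Kdm1a (chr13:47153046-47153066), at 26.25 ± 5.64 in DMSO (SD, n = 3). It was counted higher in CI-994 (42.68), Trametinib (42.35), Crenolanib (41.53), BRD4884 (38.99) and BTB12021 (36.25), and lower in T5985871 (4.84), 7678804 (8.65), AW00693 (10.28), T5758020 (11.35) and MK-1775 (15.49). Its order of compounds in these libraries thus differed from that of the Zmynd8 exon, for which the 1 Trametinib library was near DMSO. In the limma fit, 11 exons of 6 genes of this list were tested and 1 was called. This 295-nt exon of Zmym3, named because it was called, rose by 14.19 PSI from 76.71 (adjusted p 0.0433, limma). Its call was lost in 10 of 15 alternative fits.

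Among partners of Zmynd8, 1 short exon was measured, the 12-nt exon of Mta1, a NuRD subunit (chr12:114373012-114373023). Its PSI was 82.28 ± 3.34 in DMSO (SD, n = 3), and it was counted lower in 7 inhibitors, down to 44.09 in T5985871 and 50.55 in AW00693, and in 0 activators. It was counted higher in 0 compounds. In the limma fit 14 exons of 8 partner genes were tested and 0 were called, with 5 at an unadjusted p under 0.05, against 1043 of all 3625 exons.

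In a list of 70 other chromatin regulators, 40 short exons of 26 genes were measured, and 32 had a DMSO PSI over 90. The list's median difference from DMSO was 0 PSI in activators and 0 in inhibitors, as over all 2944 short exons measured. The exons counted most often were a 45-nt exon of Brd8 (93.00 in DMSO), a 41-nt exon of Setd5 (24.12) and a 42-nt exon of Baz2b (57.56). The Setd5 exon, from a gene encoding a chromatin regulator of neural development, was higher with all 4 HDAC inhibitors (36.78 to 43.94) and lower with all 4 grouped drug-like activators (5.70 to 10.99). The Brd8 exon was also lower in those 4 compounds (60.24 to 76.12) and in 7 inhibitors. The Zmynd8 exon was at its highest in the same 4 compounds, so short exons of different chromatin regulator genes did not share 1 direction there. The Phf21b 23-nt exon shown above, measured in all 27 compounds, was at 99.70 ± 0.25 in DMSO (SD, n = 3) and at 90.66 or more with every compound. At 99.70 it had no room to be counted higher, and it was counted lower in 0 compounds, so it makes no contrast with the Phf21a exon.

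**Figure D5:**
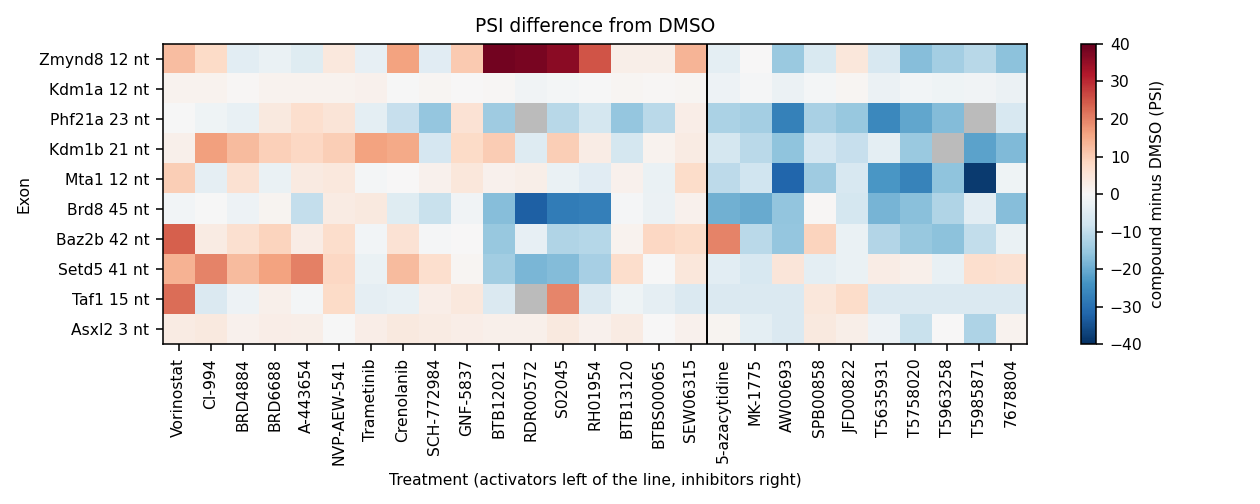
Difference in PSI from the DMSO mean (colour, PSI) for the 3 measured microexons and the listed chromatin regulator exons counted in most compounds (rows) with each compound (columns); grey cells failed the filters. In the Zmynd8 row the 4 grouped drug-like activators reach 25.27 to 38.44 PSI, and in the same columns the Setd5 and Brd8 rows are negative.

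The limma fit over the HDAC inhibitors tested 54 exons of 33 genes in that list and called 3 higher and 1 lower, named here because they were called. These counts are near the 6.32% and 1.63% over all exons and say nothing particular to the list. A 102-nt exon of Ehmt2, a histone H3 lysine 9 methyltransferase, rose by 23.01 PSI from 31.40 (adjusted p 0.000601, limma), and the Setd5 exon rose by 15.66 PSI (adjusted p 0.00889, limma). The Baz2b 42-nt exon rose by 10.64 PSI (adjusted p 0.0280, limma), a call lost in 8 of 15 alternative fits. A 96-nt exon of Smarca2, an ATPase of the SWI/SNF complex, fell by 20.06 PSI from 42.16 (adjusted p 0.00567, limma). The Ehmt2 and Smarca2 calls were kept in all 15 alternative fits and the Setd5 call in 14. The median difference was 1.72 PSI over the list and 1.58 PSI over all exons tested.

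Expression of the partner genes was counted as well, against a background in which 2837 of 11478 genes above 5 RPKM were past 2-fold higher and 4237 were lower in at least 1 compound. Of the genes in the CoREST list, 0 were past 2-fold higher in any compound. Those past 2-fold lower included Gtf2i in 5 compounds, Rcor2 in 3 and Rcor3 in 2, with Vorinostat and CI-994, which had many genes lower, among the compounds for each. Of 19 Zmynd8 partners, 4 were past 2-fold higher and 8 lower in some compound, shares near that background, most often Mbd3 (lower with the 4 HDAC inhibitors) and Chd3 and Mta1 (lower in 3 compounds each). Brd2 was past 2-fold higher with AW00693, T5635931 and T5985871. In the list of other chromatin regulators, 0.574% of gene-compound pairs were past 2-fold higher and 1.72% lower.

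Which other short exons had a profile most like those of the member exons was asked by Pearson correlation of PSI over the compounds. For the Zmynd8 exon, compared with 432 exons, the nearest were a 12-nt exon of Sh3glb2 (r = 0.84 over 27 compounds, 0.78 within activators and 0.74 within inhibitors), a 15-nt exon of Ssr1 (0.83, 0.74 and 0.70) and a 30-nt exon of Unc13a (0.83, 0.73 and 0.72). The Sh3glb2 exon spanned 7.63 to 63.23 PSI. For the 23-nt Phf21a exon, compared with 411 exons over 25 compounds, they were 21-nt exons of Eif4g1 (r = 0.87, 0.77 within activators and 0.89 within inhibitors) and of Eprs (0.84, 0.71 and 0.84), and a 30-nt exon of Ppfia1 (0.83, 0.67 and 0.74). Between the member exons themselves, Zmynd8 and the 23-nt Phf21a exon had r of -0.37 across 16 activators and 0.19 across 9 inhibitors on the log2 odds scale. All exons were read from the same libraries, so these values describe likeness over compounds that share libraries, depth and controls.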

How the data were processed

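PolyA+ RNA-seq libraries of N2A cells (34) were grouped by the treatment label. Per the labels the files use mm9. The authors ran vast-tools and deposited PSI values (percent) per event and library, with a quality score string that holds inclusion and exclusion read counts corrected for mappability. The authors estimated RPKM with Salmon on GENCODE vM21 transcripts and merged replicates, and their deposited fold changes and test columns were not used. Doses were read from the study's compound list. All per-library columns were matched to samples, with 0 left over.

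Exons passed with coverage SOK, OK or LOW and balance OK, B1 or not applicable, and introns with 15 reads and a balance p above 0.05, and a condition was measured where at least 0.5 of its libraries passed. PSI is shown with exact 95% Clopper-Pearson intervals on rounded corrected reads, which cover counting error only. Of 27 compounds, 23 have 1 library and no test. HDAC inhibitors were compared with DMSO by limma 3.58.1 in R 4.3.3 (lmFit, eBayes with trend) on log2((inclusion + 1)/(exclusion + 1)), without a replicate block, and the fit was tested on simulated data. Exons entered with all 11 libraries passing. Other values were computed in Python 3.11.15 with scipy 1.17.1 and statsmodels 0.14.6. RPKM ratios used a pseudocount of 0.5 and were counted past 2-fold with over 5 RPKM in either condition. Replicate libraries differed by more than sampling noise (mean chi-square per exon 3.15 to 5.07), so none was a copy of another. This does not tell whether they came from separate cultures.

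The members, gene lists and rules were chosen with earlier results of these data known. Named were all short exons of the members, the 3 most similar short exons per member (SD of PSI of at least 5, at least 24 compounds), up to 5 exons or genes per list, 7 splicing regulators, and longer exons and introns of the member genes that were called or counted in at least 5 compounds. The 60-nt Kdm1a exon and the exons of the lists called by limma were added after their values were seen. The 2-fold odds count and the background of exons with a DMSO PSI of 10 to 90 were added after the data were seen. Alternatives covered the PSI limit, filters, DMSO range, read offsets, scale, block, pseudocount, centring and leaving out each replicate. Exon positions were matched to GRCm38 transcripts by length, and no coordinates were converted. The expression result of 1 listed gene is not reported here.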

Additional observations from a re-analysis of the deposited data

How the results depend on the processing

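The Zmynd8 exon was counted higher in 5 compounds and lower in 2 at a limit of 15 PSI, against 8 and 5 at 10 PSI. The 23-nt Phf21a exon was lower in 7 compounds at 15 PSI, against 13, and higher in 3 at 5 PSI, against 0. Leaving out 1 library gave Zmynd8 counts of 7 to 8 higher and 5 to 6 lower, Phf21a counts of 0 to 1 higher and 13 lower, and Kdm1a odds counts of 0 higher and 6 to 7 lower; the Phf21a count of 1 came without BRD6688 library B. In the limma fit of the HDAC inhibitors, the calls were 130 higher and 28 lower with a replicate block, 114 and 21 without the filter on mean PSI, and 160 to 245 higher and 38 to 59 lower without 1 library, against 229 and 59. The lower count was 39 without DMSO A and 38 without DMSO C. BRD4884 against BRD6688 gave 0 higher and 0 to 3 lower, the 3 without BRD6688 library A. Same-lettered libraries did not deviate together (r from -0.02 to 0.08 in 20 pairs). In conditions with 2 libraries the A and B deviations mirror each other, so these pairs are not all separate checks. What the letters denote cannot be told from these values. Zmynd8 expression was past 2-fold lower in 1 compound with a pseudocount of 1 and in 1 when centred, against 2. The cause of these changes was not tested. Of the called results, 0 reversed direction. Small uncalled expression ratios were outside this check, and centring changed the sign of some. For example, Kdm1a with NVP-AEW-541 had a log2 ratio of -0.1, above that compound's median of -0.159. Among the 3 measured short exons, depth limits the 23-nt Phf21a exon most, at a median of 104.5 reads against 426.5 for Zmynd8 and 1380 for Kdm1a.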
